A study of Mus musculus with 10 samples.

Results

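The mouse β-globin cluster lies on chromosome 7 and was followed here through the chromatin accessibility of its 4 globin genes Hbb-bs, Hbb-bt, Hbb-bh1 and Hbb-y and of the 100 kb on each side of them. The joint span of these genes in the GENCODE M21 annotation of mm10 (GRCm38), chr7:103812524-103853216, measures 40.7 kb, and the window with its flanks is chr7:103712524-103953216, or 241 kb. A summit, the 1-base position of highest signal in an ATAC-seq peak, belonged to the window by its position alone. The window held 47 of the 146939 summits listed on chromosomes 1 to 19, X and Y by all libraries. Summits were extended by 250 bp on each side and merged where they overlapped, which gave 10 regions in the window out of 28981 in the genome.

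Open DNA was mapped by ATAC-seq, which uses the Tn5 transposase to cut accessible chromatin and add adaptors to it. The assay was carried out in G1E-ER4 cells. These are a mouse erythroid progenitor line without functional Gata1 that constitutively expresses GATA1 fused to the ligand-binding domain of the estrogen receptor, so that β-estradiol activates the fusion protein and erythroid differentiation follows. All cells, untreated ones included, carried the Gata1 deficiency and the fusion protein, and all were grown in IMDM with 15% FBS, 50 ng/mL SCF and 2 U/mL erythropoietin. The 5 groups were untreated cells (0 h) and cells after 2, 6, 12 and 24 h in 1e-07 M β-estradiol, with 2 libraries each and about 50000 cells per library. The labels do not say whether the 2 libraries of a time point came from separate cultures, so the p-values measure the spread between libraries of 1 cell line, which may be technical.

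Hbb-bs and Hbb-bt encode the β chains of adult hemoglobin, whereas Hbb-y and Hbb-bh1 are expressed in the embryo. The genes are transcribed from the minus strand, and upstream of Hbb-y lies the locus control region, a group of distal elements that contact the promoters by chromatin looping and are needed for high expression in erythroid cells. GATA1, TAL1, KLF1, NFE2 and the looping factor LDB1 are known to act at these elements and at the promoters. Olfactory receptor genes, which are silent in erythroid cells, surround the cluster on both sides.

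Regions were named by the distance of their median summit from the GENCODE start of Hbb-y, with negative values on the upstream side and positive values towards and beyond Hbb-bt. On the upstream side lay 5 regions, at −6.1, −7.9, −17.7, −24.1 and −57.0 kb, and on the gene side lay 5 more, at +8.45, +25.1, +41.5, +43.6 and +60.0 kb. The annotation places 9 of the 10 regions between genes, and the exception at +25.1 kb falls in an untranslated region of Hbb-bs. The upstream regions held most of the repeated summits, so the 201 bases around the median summit of each are printed, as the plus strand of GRCm38 from 5′ to 3′. Capitals mark matches to the GATA motif (GATAA on either strand, where the base before it is A or T) and to the core shared by NFE2 and AP-1 (TGANTCA, which reads the same on both strands).
−6.1 kb region (chr7:103859170-103859370): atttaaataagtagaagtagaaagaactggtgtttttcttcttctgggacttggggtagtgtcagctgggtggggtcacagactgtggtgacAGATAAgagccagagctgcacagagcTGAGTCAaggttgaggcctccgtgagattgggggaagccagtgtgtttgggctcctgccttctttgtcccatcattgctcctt
−7.9 kb region (chr7:103860994-103861194): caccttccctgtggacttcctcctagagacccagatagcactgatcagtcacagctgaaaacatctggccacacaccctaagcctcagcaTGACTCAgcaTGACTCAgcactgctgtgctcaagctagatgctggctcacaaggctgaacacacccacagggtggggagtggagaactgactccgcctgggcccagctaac
−17.7 kb region (chr7:103870821-103871021): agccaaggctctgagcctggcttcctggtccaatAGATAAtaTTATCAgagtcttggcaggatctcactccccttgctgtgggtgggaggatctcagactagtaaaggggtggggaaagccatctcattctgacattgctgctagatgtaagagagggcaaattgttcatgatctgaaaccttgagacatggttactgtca
−24.1 kb region (chr7:103877204-103877404): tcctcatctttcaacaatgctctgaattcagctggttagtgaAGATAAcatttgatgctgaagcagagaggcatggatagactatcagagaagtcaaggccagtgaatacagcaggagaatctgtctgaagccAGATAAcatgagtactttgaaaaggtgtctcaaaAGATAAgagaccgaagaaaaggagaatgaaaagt
−57.0 kb region (chr7:103910149-103910349): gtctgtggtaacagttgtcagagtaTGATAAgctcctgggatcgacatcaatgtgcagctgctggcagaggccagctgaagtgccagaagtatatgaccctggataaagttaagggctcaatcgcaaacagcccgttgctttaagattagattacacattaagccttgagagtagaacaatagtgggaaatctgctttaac

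A GATA match was present in 9 of the 10 window regions, compared with 28.0% of all 28981 regions and 39.2% of the 18279 regions more than 1 kb from the start of a protein-coding gene. The −7.9 kb region was the one without a match by this definition. It held none when 501 bases were searched either, a width at which 43.0% of all regions held a GATA match. The search required A as the last base. The printed sequence of the −7.9 kb region holds agatag, which differs from the motif in that base only, and this form was not counted in any region. The −7.9 kb region carried 2 adjacent copies of the NFE2 and AP-1 core at its median summit, one 4 bp away and the other overlapping it. Such a core occurred in 6.67% of all regions and in 1 other window region, at −6.1 kb, where it lay 18 bp and the GATA match 3 bp from the median summit. The −24.1 kb region held 3 GATA matches and the −17.7 kb region 2. A composite of CTG, then 7 or 8 bases, then GATA, as known for TAL1 and GATA1 bound together, was found in 4 window regions (−24.1, −17.7, −6.1 and +60.0 kb) and in 5.29% of all regions. CACCC, the core letters read by KLF1, occurred on either strand in 6 of the 10 regions and in 45.2% of all regions. The CTCF motif had no match in the 10 windows and was found in 5.69% of all regions. These matches describe the letters and not the binding of a factor.

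Accessibility at the globin promoters was read from summits within 1 kb of a transcript start. The share of all genes with such a summit was not computed, so the counts of genes here and below have no background. A summit within 1 kb was found for 1 of the 4 genes, Hbb-bs, and in 1 of the 10 libraries. This summit, in 24 h replicate 1, lay 9 bp inside the GENCODE start of Hbb-bs, lay 159 bp upstream of the RefSeq start, had a score of 6.37 and ranked 6571 of 15573 in its list. The score is −log10 of the q-value given by the peak caller, and it is not scaled between libraries. The other 24 h library and all 8 earlier libraries had no summit there. The nearest summits of any library lay 1.60 kb from the start of Hbb-bh1, 2.27 kb from Hbb-bt and 6.04 kb from Hbb-y, all outside the 1 kb limit. Besides these genes the window held 3 other globin genes, namely Hbb-bh2 and the pseudogenes Hbb-bh3 and Hbb-bh0, and 13 olfactory receptor genes, and none of these had a summit within 1 kb. Just outside that limit, the nearest olfactory receptor start was that of Olfr67, at 1.24 kb.

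The 2 adult genes are nearly identical in their coding sequence, with 440 of 441 aligned bases shared (99.8%), whereas Hbb-bs and Hbb-bh1 shared 74.4% and Hbb-bs and Hbb-y also 74.4%. These values are from GRCm38, and the sequence of the cell line itself was not examined and may differ. The authors kept reads with a single genomic position. The share of unique sequence in GRCm38 was therefore computed, as a measure of where such reads can be placed. Of all stretches of 75 bases that begin in the gene body, 36.05% occurred once in the genome for Hbb-bt and 39.7% for Hbb-bs, and 100% did for Hbb-bh1 and for Hbb-y. Within 250 bp of the start the share was 87.2% for Hbb-bt and 100% for the other 3 genes. With 36 bases it was 79.4% for Hbb-bt and 98.2% for Hbb-bs. Most of the DNA next to the 4 starts was therefore unique at these lengths, and the bodies of the 2 adult genes were not. All 10 regions were unique for at least 98.8% of the stretches of 75 bases. In the whole window the share was 91.1%. The plot of unique sequence shows several stretches with little unique sequence. Those near −70 kb, near +34 kb between Hbb-bs and Hbb-bt, and near +55 kb held no listed summit.

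**Figure D1:**
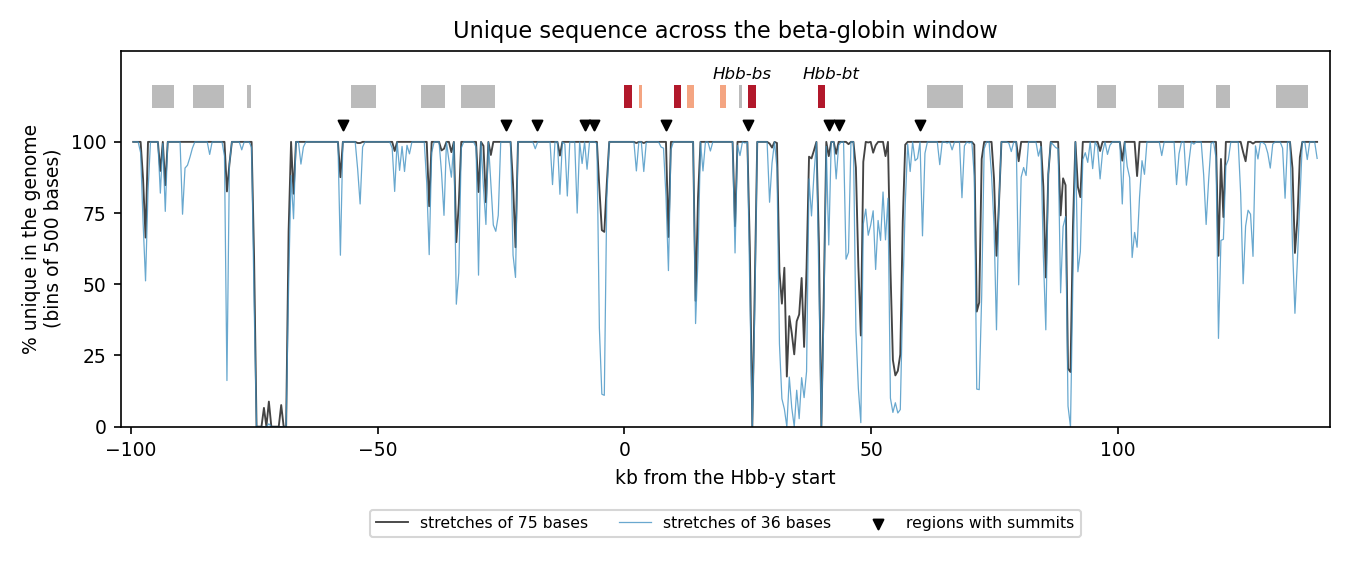
Percentage of stretches of 75 bases (dark line) and 36 bases (blue line) that occur once in the mouse genome, in bins of 500 bases, against the distance in kb from the Hbb-y start (negative: upstream). Triangles are the 10 regions, red boxes the 4 globin genes, orange boxes the other globin genes and grey boxes olfactory receptor and other genes. Both lines fall to near 0 at Hbb-bs and Hbb-bt. At the triangles 98.8% or more of the stretches of 75 bases were unique, and of those of 36 bases 73.9% at +41.5 kb, 79.2% at +8.45 kb and 96.4% or more at the other 8.

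In RefSeq promoter sequences of 250 bases before to 50 after the start, on GRCm38, an entry was found for Hbb-bs, Hbb-bt and Hbb-y. Only the 250 bases before the start were searched for motifs. The Hbb-bs and Hbb-y promoters each held 1 GATA match and the Hbb-bt promoter 0, against 16.6% of the 32851 promoters in the table with at least 1. The CCAAT box and the CACCC box, both known from globin promoters, occurred once each at Hbb-bs and Hbb-y and 3 times each at Hbb-bt. These boxes were present in 33.8% and 52.0% of all promoters. The promoters of Hbb-bs and Hbb-bt were 69.3% identical over the 250 bases before the start, which is less than in their coding sequence.

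**Figure D2:**
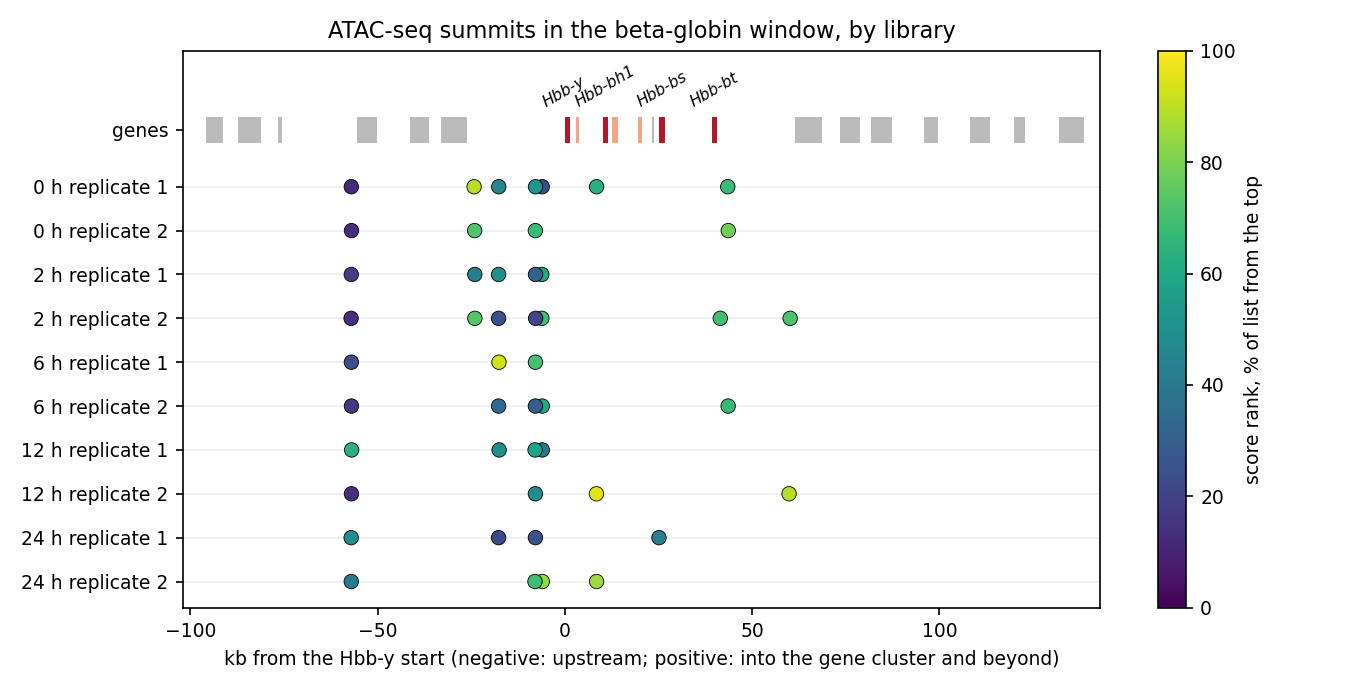
Position of the 47 summits in the 10 libraries (rows) against the distance in kb from the Hbb-y start, with negative values upstream. Colour gives the rank of the summit's score as a percentage of its list from the top, and boxes give the genes (red, the 4 globin genes; orange, other globin genes; grey, olfactory receptor and other genes). The columns at −7.9 and −57.0 kb are filled in all 10 libraries, and 1 library has a summit at Hbb-bs.

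Of the 10 regions, 2 were listed by all 10 libraries, at −7.9 and −57.0 kb, and 2 by 1 library, at +41.5 and +25.1 kb. In the genome, 21.5% of regions were listed by all 10 libraries and 28.9% by 1. The remaining 6 regions were listed by 7 libraries (−17.7 kb), 6 (−6.1 kb), 4 (−24.1 kb), 3 (+8.45 and +43.6 kb) and 2 (+60.0 kb). No library had more than 1 summit in a region. The libraries placed the summit of the −57.0 kb region with an SD of 40.7 bp and that of the −7.9 kb region with an SD of 51.3 bp (n = 10 each). The 4 upstream regions nearest to Hbb-y stood between 1.82 and 9.83 kb apart, and 32.9 kb separated the −24.1 kb from the −57.0 kb region. The window held 41.5 regions per Mb, the whole genome 10.6.

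The −57.0 kb region (chr7:103909926-103910564) lies between the olfactory receptor genes Olfr65 and Olfr631 and had the best median rank of the window, 3067. At 0 h its score ranked 1754 of 15258 in replicate 1 and 1535 of 11698 in replicate 2, which is 11.5% and 13.1% of the list from the top. The corresponding values were 18.5% and 13.4% at 2 h and 23.0% and 15.9% at 6 h. At 12 h the replicates parted, with 64.4% in replicate 1 and 12.7% in replicate 2. At 24 h they were 49.0% and 41.5%. Both 24 h libraries thus stood lower in their lists than every library of 0, 2 and 6 h, while at 12 h only replicate 1 did. The scores ran from 4.66 in 12 h replicate 1 to 18.95 in 6 h replicate 2.

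The −7.9 kb region (chr7:103860793-103861458), with the 2 adjacent NFE2 and AP-1 cores, was listed throughout at middle ranks. Its rank from the top was 52.7% and 67.8% at 0 h in replicates 1 and 2, 31.7% and 21.02% at 2 h, and 70.2% and 29.8% at 6 h. At 12 h it was 58.3% and 48.4%, and at 24 h 24.8% and 69.3%. Both 2 h libraries stood above both 0 h libraries. At 6 and 24 h the replicates of 1 time point lay on either side of the 0 h values.

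Values by library are also given for 4 regions with fewer than 8 libraries, chosen after their values were seen. The −24.1 kb region (chr7:103877014-103877715), which holds 3 GATA matches, was listed by both libraries of 0 h, at 89.3% and 72.5% from the top, and both of 2 h, at 42.6% and 73.3%, and by none of the 6 later libraries. Across the genome 15 regions of 28981 (0.0518%) had this pattern, which was picked from the data and carries no test. The +43.6 kb region (chr7:103809344-103809977), 4.38 kb downstream of the Hbb-bt start and beyond its end, was listed at 67.6% and 78.5% in the 0 h libraries, at 67.5% in 6 h replicate 2, and in no other library. Both regions ranked in the lower part of most lists that held them.

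The −17.7 kb region (chr7:103870539-103871175) was listed at 46.4% in 0 h replicate 1, 49.5% and 24.4% at 2 h, 93.04% and 34.4% at 6 h, 48.9% in 12 h replicate 1 and 22.3% in 24 h replicate 1. Replicate 2 of 0, 12 and 24 h lacked it. The −6.1 kb region (chr7:103859001-103859635) was listed at 23.9% in 0 h replicate 1, 60.3% and 69.8% at 2 h, 60.7% in 6 h replicate 2, 39.6% in 12 h replicate 1 and 83.6% in 24 h replicate 2. At 0, 12 and 24 h each of these regions was listed by 1 of the 2 libraries, and at 2 h by both. The other 4 regions, at +8.45, +25.1, +41.5 and +60.0 kb, were each listed by 1 to 3 libraries with scores from 2.83 to 6.37 and by no time point in both libraries.

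**Figure D3:**
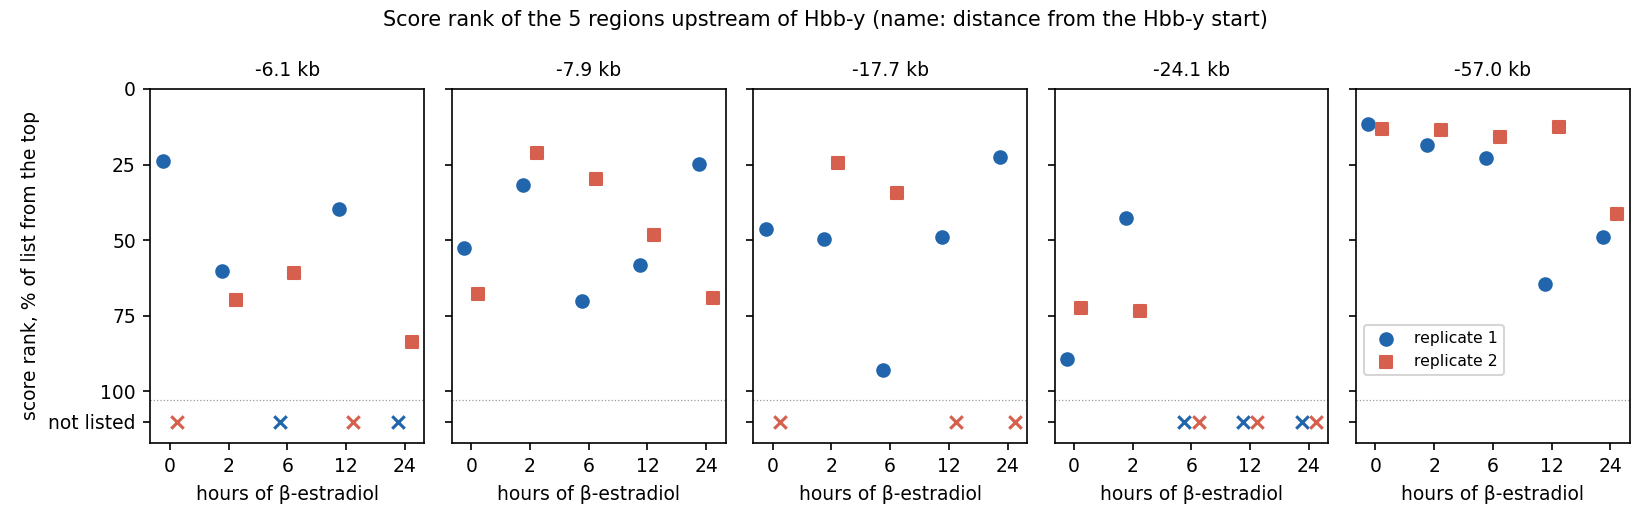
Rank of the region's best summit, as a percentage of the list from the top (0 is the top), against hours of β-estradiol for the 5 upstream regions. Circles are replicate 1, squares replicate 2, and crosses mark libraries that did not list the region. The −24.1 kb region has points at 0 and 2 h and crosses at 6, 12 and 24 h, and the −57.0 kb region has a point in every library.

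Each time point was compared with untreated cells by presence. A region counted as gained when both libraries of the time point and neither 0 h library listed it, and as lost in the opposite case. No window region was gained at 2, 6, 12 or 24 h, where 2.67%, 4.08%, 2.47% and 1.71% of all regions were. Lost regions numbered 1 of 10 at 2 h (+43.6 kb), 1 at 6 h (−24.1 kb) and 2 at 12 and at 24 h (both of these), where 1.15%, 0.759%, 1.88% and 3.51% of all regions were. With 2 libraries against 2 an exact two-sided permutation test cannot go below p = 0.333, so these are counts without a test. When every list was reduced to the 10698 peaks with the best scores, the −24.1 kb region no longer counted as lost at any time, since its summit in 0 h replicate 1 ranked 13623, and 1 region was lost at 12 and at 24 h. Without 0 h replicate 1, 2 regions (−6.1 and −17.7 kb) counted as gained at 2 h and 1 (−17.7 kb) at 6 h. Leaving out 2 h replicate 1, 12 h replicate 1 or 24 h replicate 2 gave 2, 1 and 1 gained at that time, and leaving out 0 h replicate 2 gave 2 lost at 2 and at 6 h, as did 6 h replicate 2 at 6 h. In bulk libraries, fewer cells with an open region and less open DNA in each cell cannot be told apart.

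The change in rank was tested for regions listed by all 10 libraries, which were 6234 in the genome and 2 in the window. Ranks were turned into normal scores, on which a higher value is a place nearer to the top of the list, and limma gave each time point's difference from 0 h. The −57.0 kb region differed by −1.04 at 24 h (SE 0.50, 95% interval −2.11 to 0.03, n = 2 against 2), with an unadjusted p of 0.0559 and an adjusted p of 0.9998 in limma. Its differences at 2, 6 and 12 h were −0.16, −0.29 and −0.78. The 12 h value rested on 1 library, since it was −0.02 without 12 h replicate 1 and −1.53 without 12 h replicate 2 (limma unadjusted p = 0.0125, adjusted p = 0.774). The −7.9 kb region differed by 0.91 at 2 h (SE 0.52, 95% interval −0.20 to 2.01) and by 0.26, 0.18 and 0.35 at 6, 12 and 24 h. These last 3 differences had no stable sign, with −0.27 at 6 h without 6 h replicate 2, −0.02 at 12 h without 0 h replicate 2 and −0.24 at 24 h without 24 h replicate 1. None of these 8 differences passed limma's test at an adjusted p of 0.05, and 0 of the 8 had an unadjusted p under 0.05.

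For the slope over the order of the time points, the −57.0 kb region fell by 0.27 per step (SE 0.10, 95% interval −0.48 to −0.06), with an unadjusted p of 0.0150 and an adjusted p of 0.910 in limma, and the change did not pass the test. Across the genome limma called 0 of 6234 regions (0%) at 2, 6, 12 and 24 h and for the slope, and 211, 239, 194, 259 and 283 regions had an unadjusted p under 0.05. Fits of log2 rank, of quantile-normalised log2 score and with the replicate number as a block also called 0. With the block, which pairs libraries by replicate number, the 24 h difference of the −57.0 kb region had a 95% interval of −2.0 to −0.08, which leaves out 0 (limma unadjusted p = 0.0356), and an adjusted p of 0.733.

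**Figure D4:**
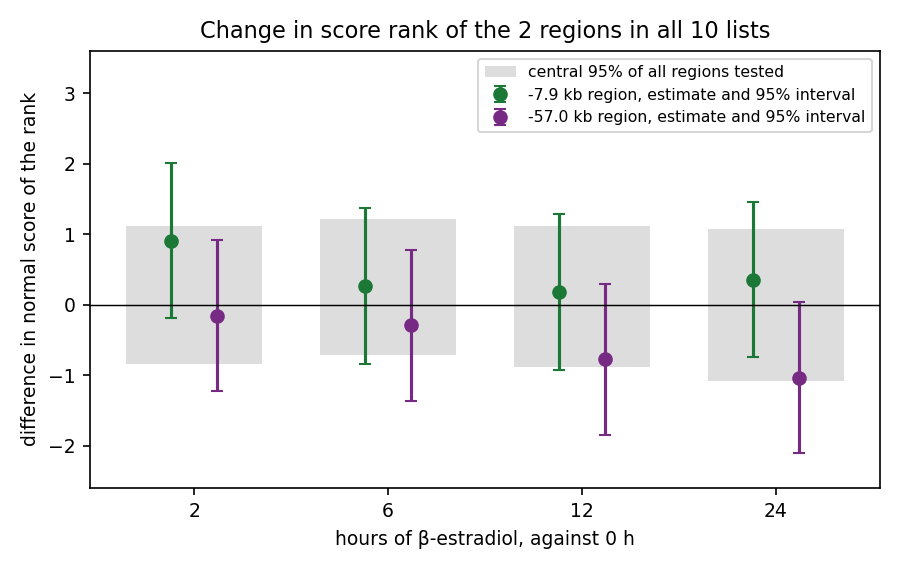
Difference in the normal score of the rank from 0 h for the −7.9 kb region (green) and the −57.0 kb region (purple) at 2, 6, 12 and 24 h. Points are limma estimates with 95% intervals, and grey boxes hold the central 95% of the estimates of all 6234 regions. In this fit, without the replicate block, all 8 intervals include 0, and all 8 estimates lie inside the grey boxes. With the block the 24 h interval of the −57.0 kb region leaves out 0.

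The number of summits in the window was 7 and 4 at 0 h in replicates 1 and 2, 5 and 7 at 2 h, 3 and 5 at 6 h, and 4 in each library of 12 and 24 h. Against hours this gave Pearson's r = −0.489 (permutation p = 0.141, two-sided) and Spearman's rho = −0.529 (p = 0.123, permutation), with an adjusted p of 0.283 for each over 4 coefficients in this permutation family. Per 1000 listed peaks the values were r = −0.323 and rho = −0.419, with permutation p = 0.368 and 0.239 (adjusted 0.368 and 0.319). Without both 24 h libraries r was −0.540 (permutation p = 0.179, n = 8). Within replicate 1 alone r was −0.519 and within replicate 2 alone −0.461 (permutation p = 0.433 and 0.500, n = 5 each). The decline in number did not pass the test, except that without 0 h replicate 2 rho was −0.719 (permutation p = 0.0361, n = 9).

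The regulators of the locus were read from summits within 1 kb of their own starts, again without a share over all genes. Of 20 such genes, 7 had a summit there in all 10 libraries, among them Nfe2, which encodes the erythroid subunit of NFE2, Zfpm1, which encodes the GATA1 partner FOG1, and Ctcf. Klf1 had one in 4 libraries, Tal1 in 2, Gata1 in 1 and Gata2 in none, whereas Lmo2, Ldb1 and Cbfa2t3, which encode members of the LDB1 complex or its partners, had one in 7, 6 and 8. Bcl11a and Sox6, repressors of embryonic globin genes, had one in 1 library each. The 7 regulator genes entered the limma fit with 1 region each, and 0 rose and 0 fell at any time point (0 of 28 differences had an unadjusted p under 0.05). Their median difference from 0 h at 24 h was −0.06, beside −0.01 over all regions.

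The α-globin genes, which encode the partner chains, were read for promoter summits in the same way, also without a share over all genes. Hba-a1 and Hba-a2, the adult genes, Hba-x, the embryonic gene, and Hbq1a had no summit within 1 kb of a start in any library, and Hbq1b had one in 3. Unique sequence was not computed for these genes, so it is unknown whether reads could be placed at their starts. A window of the same flanks around these genes on chromosome 11 (chr11:32176400-32400873) held 18 regions, or 80.2 per Mb, of which 2 were listed by all 10 libraries. There 1 region was gained and 1 lost at 24 h. The difference between the clusters was not tested.

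The promoter regions whose rank followed that of the −57.0 kb region most closely across the 10 libraries were those of Rab8a (r = 0.939), Ccne1 (r = 0.926) and Zc3h18 (r = 0.899), among 5065 compared. The median r over these promoters was 0.0694 and the 95th percentile 0.664. The 10 points share libraries and list sizes, and the likeness is a description of ranks only.

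The lists held 10698 to 19859 peaks, with the fewest in 24 h replicate 2 and the most in 6 h replicate 2. They record no read depth, so the limit of detection in the window is unknown. Among the erythroid marker genes, Epor, Tfrc and Epb42 had a promoter summit in all 10 libraries, Slc4a1, Klf1, Ermap, Rhd and Hemgn in 4 to 8, and Alas2 in none. The markers of B cells (3), macrophages (3) and hepatocytes (2) had none, and T cell markers had none except Lck (5 libraries). Of 3 fibroblast markers Col1a1 had a summit in 8 libraries and Pdgfra in 3. Their part in the results was not tested.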

How the data were processed

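Processed ATAC-seq data of 10 G1E-ER4 libraries were used, 2 at each of 5 time points, grouped by sample title. Per the submitters' processing notes and the methods, the authors mapped reads to mm10, retained those with 1 genomic position, and ran peak calling with MACS2 on each library separately. The notes name Bowtie 1.0.0 and the methods Bowtie2, so the aligner is not settled. The deposited lists give 1-base summits and a score, −log10 of the q-value, from 1.30 upwards, with no widths, read counts or depth. A Tn5 shift of the reads is not given in the sources used here, so summit positions may be off by some bases.

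Peaks on chromosomes 1 to 19, X and Y were kept, which left out 4 or 5 per list. Summit windows of 501 bp were merged over all lists. Ranks within a list were converted to normal scores of rank / (list size + 1) and tested with limma 3.58.1 in R 4.3.3 over the regions in all 10 lists, with Benjamini-Hochberg adjustment and a threshold of 0.05, after testing on simulated data. Correlations were tested by 100000 random permutations drawn with numpy 2.4.6. The rule for named items was every globin gene of the window, regions in at least 8 of 10 libraries by library, and fixed lists of regulators, α-globin genes and markers. The 3 most similar promoter regions were also named. An item of the marker lists is not reported here. The members, lists and tests were chosen with earlier results of these data known. Gene positions are from GENCODE M21, promoter sequences from RefSeq. Unique sequence was counted over all stretches of 36 or 75 bases of the genome. Differences between replicates 1 and 2 were correlated between time points over regions, with all 10 correlations between 0.182 and 0.347. Libraries with the same replicate number thus deviated together from their group means. Whether they came from paired cultures or shared a difference in quality was not tested. The median score was higher in replicate 2 at every time point, for example 6.98 against 5.68 at 24 h. The replicate number was then used as a block in an alternative fit.

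Alternatives were windows of 100 and 500 bp on each side, lists of equal size, a score of at least 2, a flank of 50 kb, leaving out each library, other rank and score scales, and the block. A search of 501 bp for GATA was added after seeing the data.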

Additional observations from a re-analysis of the deposited data

How the results depend on the processing

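Across 426 combinations of result and alternative, 409 kept their direction and their side of the threshold, or for counts stayed within 1.5 times. Many of these results could not move under the alternative, so the 409 overstate how well the results hold. The 2 h difference of the −7.9 kb region, for example, stayed at 0.905 when a 6, 12 or 24 h library was left out. In every setting limma called 0 regions genome-wide, so its counts for the window were 0 throughout. The number of window regions was 9 to 11, and 9 to 10 with 1 library left out. With lists of equal size, 1 region was lost at 12 h and 1 at 24 h (+43.6 kb each), and at 6 h the lost region was +43.6 kb in place of −24.1 kb, because the −24.1 kb summit of 0 h replicate 1 (rank 13623) and the +43.6 kb summit of 6 h replicate 2 (rank 13395) both fell outside the 10698 peaks kept. With a flank of 50 kb, 1 region was in all libraries, since the −57.0 kb region lies outside that flank. Leaving out each library in turn gave 0 to 2 regions gained at 2 h and 0 to 1 at 6, 12 and 24 h, 1 to 2 lost at 2 h and 1 to 2 at 6 h, and 2 lost at 12 and at 24 h. Gained regions became 2 at 2 h without 0 h replicate 1 and without 2 h replicate 1, and 1 at 6 h without 0 h replicate 1, at 12 h without 12 h replicate 1 and at 24 h without 24 h replicate 2 (the Hbb-bs region). Lost regions became 2 at 2 h without 0 h replicate 2, and 2 at 6 h without 0 h replicate 2 or 6 h replicate 2. Fewer libraries make presence in all of them easier to meet.

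limma called 0 window regions under every alternative run, including the replicate block, where the −57.0 kb region differed by −1.04 at 24 h (limma adjusted p = 0.733, unadjusted p = 0.0356) and fell by 0.27 per step (adjusted p = 0.584). The block changed no call. Adjusted p-values of this region at 24 h were 0.719 or higher in all limma alternatives. The differences of the −7.9 kb region from 0 h at 6, 12 and 24 h reversed in some alternatives, and the cause was not tested. Its 2 h difference stayed positive in every alternative, with 0.71 to 1.10 when 1 library was left out. At 6 h the value was −0.15 with lists of equal size and −0.016 on quantile-normalised log2 scores, and leaving out 1 library gave −0.27 (without 6 h replicate 2) to 0.79 (without 6 h replicate 1). At 12 h leaving out 1 library gave −0.019 (without 0 h replicate 2) to 0.38, and at 24 h −0.24 (without 24 h replicate 1) to 0.95 (without 24 h replicate 2). For the −57.0 kb region the ranges were −0.26 to −0.05 at 2 h, −0.42 to −0.16 at 6 h, −1.53 to −0.02 at 12 h and −1.14 to −0.95 at 24 h. For the number of summits against hours, leaving out 1 library gave r from −0.604 to −0.379 and rho from −0.719 to −0.401 (lowest permutation p = 0.0361, without 0 h replicate 2). Permuting hours within replicate number, the replicate block for this relation, gave permutation p = 0.166 for r and 0.148 for rho. The lists limit detection, since a region below the peak caller's threshold is not listed and read depth is unknown.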
